A study of Arabidopsis thaliana with 6 samples.

Results

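The genes described here are 10 loci of the microRNA and trans-acting siRNA (tasiRNA) machinery of Arabidopsis thaliana, chosen by locus identifier out of the 28775 loci of the counts table: DCL1, HYL1, SE, HEN1, HST, AGO1, AGO10, AGO7, SGS3 and RDR6. All 10 had enough counts to be tested. The data are RNA-seq counts from inflorescence apices, with 3 libraries from plants treated with dexamethasone, which allows expression of AP2m3, and 3 libraries from mock-treated plants. AP2m3 is a form of the transcription factor APETALA2 that the microRNA miR172 does not restrain. Both groups carried the inducible AP2m3 and grew at 21 °C in long days (16 h light). They were treated 2 weeks after bolting and sampled 6 to 8 h later, when the visible flower primordia were taken off, and the labels call the tissue inflorescence meristem. The sources used here do not give the ecotype or what drives AP2m3. No plants without AP2m3 are among the 6 samples, so effects of dexamethasone itself and of AP2m3 cannot be told apart. The libraries are called Dx4, Dx5 and Dx6 (dexamethasone) and CT1, CT2 and CT3 (mock). The labels do not tell whether each library is from its own plants, so the spread behind each p-value may be technical.

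Plant microRNAs are cut from hairpin transcripts by the nuclease DCL1, with the double-stranded RNA-binding protein HYL1 and the zinc-finger protein SE as partners. HEN1 methylates the 3′ ends of the duplex, which protects it from decay, and HST, an exportin relative, takes part in microRNA biogenesis and movement. The small RNA is then loaded into an ARGONAUTE: AGO1 is the main slicer of microRNA targets, AGO10 holds miR165 and miR166 away from AGO1 in the shoot meristem and upper side of organs, and AGO7 works with miR390. AGO7 with miR390 cuts the noncoding TAS3 transcript, SGS3 protects the fragments and RDR6 copies them into double-stranded RNA, which is diced into tasiRNAs against auxin response factor genes. DCL1 and AGO1 are themselves targets of miR162 and miR168, so the pathway limits its own products.

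The short RNAs that tie these genes to each other and to their targets are shown first, because the results below are grouped by these links. They were read from the RefSeq annotation and genome of assembly TAIR10.1, written 5′ to 3′ with T for U, with the seed (bases 2 to 8) in capitals. miR165 and miR166 share the seed CGGACCA, and the other 3 have seeds of their own.
miR162a-3p: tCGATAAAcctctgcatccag
miR168a-5p: tCGCTTGGtgcaggtcgggaa
miR390a-5p: aAGCTCAGgagggatagcgcc
miR165a-3p: tCGGACCAggcttcatccccc
miR166a-3p: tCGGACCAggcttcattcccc

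The best-matching stretches of the target transcripts were found by scoring every window of each annotated transcript, and capitals mark target bases without a Watson-Crick partner. A match is a description of the sequence and not a measured cleavage. In DCL1 (chr1:27522-27627, plus strand, coding sequence across a splice junction) 21 of 21 bases of miR162 paired when 1 target base was looped out. In AGO1 (chr1:17891529-17891549, minus strand, coding sequence) 18 of 21 bases paired with miR168. The noncoding TAS3 transcript had 16 of 21 bases paired with miR390 both at its 3′ stretch (chr3:5862343-5862363, plus strand) and at its 5′ stretch (chr3:5862099-5862119), and the unpaired bases of the 5′ stretch include those opposite bases 9, 10 and 11 of miR390, the centre of the duplex.
DCL1 for miR162: ctggatgcagaggtAttatcga
AGO1 for miR168: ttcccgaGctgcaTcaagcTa
TAS3 3′ stretch for miR390: TTGTctatccctcctgagctA
TAS3 5′ stretch for miR390: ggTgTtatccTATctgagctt

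The induced gene AP2 (AT4G36920) checked the labels. Its level in CPM (counts scaled to a common library size, with TMM evening out composition between libraries) was 1100, 1187 and 1009 in Dx4, Dx5 and Dx6, against 55.7, 60.5 and 78.1 in CT1, CT2 and CT3. On the log2 scale AP2 was 4.08 ± 0.15 (SE) higher, with an edgeR adjusted p of 2.8e-13, and these counts do not separate transgene from endogenous reads. Library totals ran from 1833795 to 2109788 counts with dexamethasone and from 1633571 to 2196781 in mock, and a count of 0 allows up to 1.88 CPM in the smallest library. The mock libraries were less alike than the dexamethasone libraries, since Pearson's r of log2 CPM between libraries, taken across genes, was 0.974 to 0.975 among dexamethasone libraries and 0.942 to 0.964 among mock libraries. CT3 was about as near to Dx4 and Dx6 (0.945 and 0.943) as to CT1 (0.942). Of 6 shoot meristem markers, STM, KNAT1 and CLV1 were present, WUS had 7 to 11 counts per library and CLV3 was at 0 in all libraries. The summed meristem markers were 262 to 279 CPM with dexamethasone and 203 to 249 CPM in mock, with CLV1 higher and TFL1 lower by the test. The summed level of 4 floral organ markers was 538 to 554 CPM with dexamethasone and 552 to 663 CPM in mock, with SEP3 called lower. Several other marker sets moved with the groups. The mesophyll markers RBCS1A and CAB1 summed to 3730 to 3986 CPM with dexamethasone against 6599 to 8235 CPM in mock (both called lower), the phloem markers SUC2 and APL to 31.6 to 40 against 43.2 to 58.7 CPM (SUC2 called lower), and 8 dawn-phased clock genes to 41.4 to 61.9 against 73.5 to 165 CPM (1 of 3 tested called lower). Of 3 root markers PLT1 was at 0, and the sum was 13.4 to 24.3 CPM with dexamethasone against 36.3 to 46.3 CPM in mock, nearly all of it SHR, which was called lower. In the mock group the sum of 3 anther markers was 53.9 CPM in CT1 and 147 to 149 CPM in CT3 and CT2, against 99.6 to 142 CPM with dexamethasone. The 3 tested genes of the clock set gave the covariate of 1 alternative, the dawn-gene score, which is their mean log2 CPM. This score is lower in every dexamethasone library than in any mock library and so is partly bound up with the groups. In these bulk samples fewer cells of a type and less RNA per cell cannot be told apart, and the part of these differences in the results below was not tested.

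None of the 10 machinery genes was called higher or lower after AP2m3 induction by edgeR's quasi-likelihood test at an adjusted p under 0.05, and none by DESeq2's Wald test or limma-voom. The background is 13.9% of 15857 tested genes, 5.86% higher and 8.02% lower, and 1 machinery gene, AGO7, had an unadjusted p under 0.05, as had 26.7% of all genes tested. The median log2 fold change over the 10 was 0.055, beside 0.0035 over all genes tested, and their median absolute log2 fold change was 0.11, beside 0.23. Over the 11936 tested genes with a mean CPM at or above the lowest of the 10, the median absolute log2 fold change was 0.21. The 95% intervals bound the changes that these data allow: all 10 intervals lay within a 2-fold change in either direction, and 9 of them within 1.5-fold, the exception being AGO7. The ranges of the groups were apart in 1 of the 10 genes, where 31% of all genes tested had groups that did not overlap. That gene was again AGO7, with all 3 dexamethasone libraries above all 3 mock libraries, as in 15.1% of all genes tested.

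**Figure D1:**
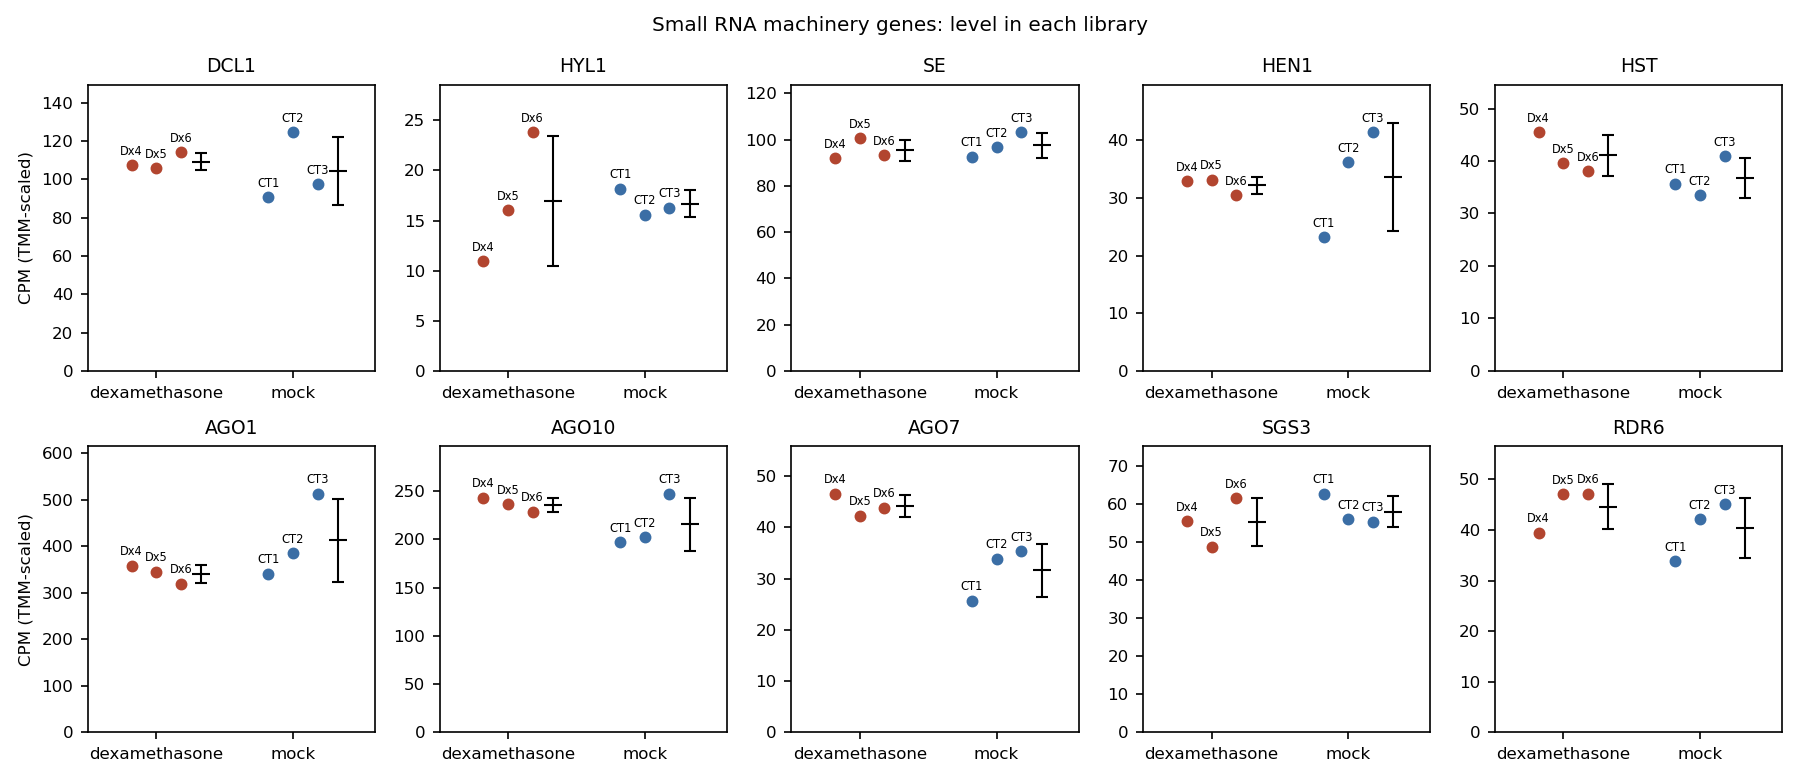
Level of each of the 10 machinery genes in CPM (TMM-scaled, axis from 0) in the 3 dexamethasone libraries (red) and the 3 mock libraries (blue), with mean ± SD in black. AGO7 is the panel whose groups do not overlap, and AGO1 is highest in CT3 at 513 CPM.

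Levels of different genes can be compared only per length, so CPM were divided by the exon length in kilobases. On that scale the argonautes AGO1 and AGO10 were the most abundant of the 10 in both groups, at 93.8 ± 5.36 and 55.8 ± 1.74 CPM per kb with dexamethasone and 114 ± 24.6 and 51 ± 6.51 CPM per kb in mock (SD, n = 3 each). SE followed at 35.9 ± 1.73 CPM per kb with dexamethasone and 36.8 ± 2 in mock, apart from its neighbours in the order. SGS3 and DCL1 came next with overlapping ranges, at 18.6 ± 2.15 and 17.4 ± 0.71 CPM per kb with dexamethasone and 19.5 ± 1.37 and 16.6 ± 2.85 in mock. HEN1, RDR6, HYL1 and HST lay between 8.89 and 10.4 CPM per kb in both groups and could not be ordered beyond their spread. AGO7 was among them in mock, at 9.19 ± 1.52 CPM per kb, and with dexamethasone its mean was above all 4, at 12.8 ± 0.63 CPM per kb. Its range there was apart from that of RDR6, the next gene down, but not from that of HYL1.

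DCL1 (AT1G01040), the dicer of microRNA precursors, had 107, 106 and 114 CPM in Dx4, Dx5 and Dx6 against 90.8, 125 and 97.7 CPM in CT1, CT2 and CT3. The dexamethasone libraries were close together inside the mock range. The log2 fold change was 0.06 ± 0.14 (95% interval -0.23 to 0.35, edgeR adjusted p = 0.834). Of the 50-base words of the DCL1 exons 14.1% also lie in exons of other genes, and annotated loci on both strands overlap it (AT1G01046 on its own strand, AT1G01050 and AT1G03993 on the other), so its counts carry that uncertainty. The precursor of miR162, MIR162A, had 16.4, 18.2 and 16.7 CPM in Dx4, Dx5 and Dx6 against 10.6, 16 and 15.3 CPM in CT1, CT2 and CT3. Its groups did not overlap, but the log2 fold change of 0.26 ± 0.23 was not called (adjusted p = 0.52, 17 to 35 counts per library). CT1 was the low library for DCL1 and for MIR162A alike.

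HYL1 (AT1G09700), the double-stranded RNA-binding partner of DCL1, was the least counted of the 10, with 20 to 50 counts in a library, and AT1G09690 on the same strand overlaps it. It had 11, 16.1 and 23.8 CPM in Dx4, Dx5 and Dx6 against 18.2, 15.6 and 16.3 CPM in CT1, CT2 and CT3. The dexamethasone libraries spread over a range that holds the whole mock range, and the log2 fold change of 0.05 ± 0.26 (edgeR adjusted p = 0.935) came with the widest interval of the 10, from -0.48 to 0.58. Within a library HYL1 had 0.10, 0.15 and 0.21 counts per DCL1 count in Dx4, Dx5 and Dx6 and 0.20, 0.13 and 0.17 in CT1, CT2 and CT3. This ratio does not depend on library scaling, and its groups overlapped (exact two-sided permutation p = 0.8, 3 against 3, where the smallest possible p is 0.1).

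SE (AT2G27100), the zinc-finger partner, varied little over the 6 libraries. It had 92.1, 101 and 93.4 CPM in Dx4, Dx5 and Dx6 against 92.7, 96.7 and 103 CPM in CT1, CT2 and CT3, a log2 fold change of -0.04 ± 0.13 (95% interval -0.30 to 0.23, edgeR adjusted p = 0.902). HEN1 (AT4G20910), the methyltransferase that protects small RNAs, had 32.9, 33.2 and 30.5 CPM in the dexamethasone libraries and 23.2, 36.2 and 41.4 CPM in CT1, CT2 and CT3. Its mock libraries spread widely around the tight dexamethasone values, with CT1 lowest, and its log2 fold change was -0.09 ± 0.19 (interval -0.48 to 0.30, adjusted p = 0.817). HST (AT3G05040) had 45.5, 39.6 and 38.1 CPM in Dx4, Dx5 and Dx6 against 35.7, 33.5 and 40.9 CPM in CT1, CT2 and CT3, with overlapping groups and a log2 fold change of 0.16 ± 0.16 (interval -0.17 to 0.49, adjusted p = 0.579).

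AGO1 (AT1G48410), the main slicer, had 358, 346 and 320 CPM in Dx4, Dx5 and Dx6 against 341, 386 and 513 CPM in CT1, CT2 and CT3. The mock libraries spread from inside the dexamethasone range to well above it, with CT3 the highest. The log2 fold change was -0.28 ± 0.14 (95% interval -0.57 to 0.01, edgeR adjusted p = 0.203, unadjusted p = 0.0566). The outcome depended on which mock libraries were kept: without CT1 AGO1 was called lower (log2 fold change -0.40, adjusted p = 0.0402), and without CT3 the log2 fold change was -0.09 (adjusted p = 0.512). The dawn-gene score as covariate also made it a lower call (-0.77 on the log2 scale, adjusted p = 0.0248). Within mock the 8 dawn-phased genes, of which the score averages 3, summed to 165, 121 and 73.5 CPM in CT1, CT2 and CT3. That is the reverse order of AGO1 in mock. With dexamethasone the sums were 61.9, 53.5 and 41.4 CPM in Dx4, Dx5 and Dx6, the same order as AGO1. A link between these genes and AGO1 was not tested. The miR168 precursors could not be followed, with at most 5 counts of MIR168A in a library and none of MIR168B.

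AGO10 (AT5G43810), the relative of AGO1 that sequesters miR165 and miR166, had 243, 237 and 229 CPM in Dx4, Dx5 and Dx6 against 197, 203 and 247 CPM in CT1, CT2 and CT3. All dexamethasone libraries lay above CT1 and CT2 and below CT3, and the log2 fold change was 0.13 ± 0.12 (95% interval -0.13 to 0.39, edgeR adjusted p = 0.565). Without CT3 it was 0.24 (adjusted p = 0.0669), also not called. Because AGO10 and AGO1 compete for the same microRNAs, their ratio was followed inside each library. There were 0.68, 0.68 and 0.71 AGO10 counts per AGO1 count in Dx4, Dx5 and Dx6 against 0.58, 0.53 and 0.48 in CT1, CT2 and CT3. All 3 dexamethasone libraries were above all 3 mock libraries, 1.31-fold on average, with means of 0.69 ± 0.019 and 0.53 ± 0.048 (SD, n = 3 each). How often the ratio of any pair of genes separates in this way was not computed. Among single genes, groups did not overlap in 31% of those tested. The other ratios followed, RDR6 to SGS3 and HYL1 to DCL1, overlapped between groups. The exact two-sided permutation p was 0.1, the smallest that 3 against 3 allows, so the ratio cannot pass 0.05 in this design. Leaving out any 1 library kept the log2 difference of the ratio between 0.33 and 0.46, beside 0.39 with all 6.

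**Figure D2:**
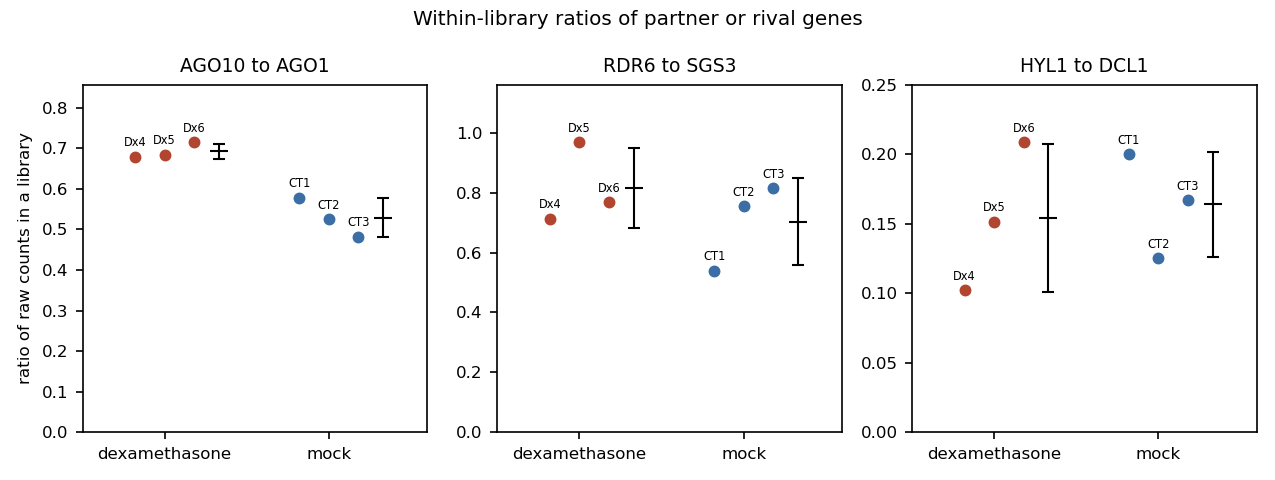
Ratios of raw counts of 2 genes inside each library (axis from 0), dexamethasone in red and mock in blue, with mean ± SD in black. The AGO10 to AGO1 ratio is 0.68 to 0.71 in the dexamethasone libraries and 0.48 to 0.58 in the mock libraries, while RDR6 to SGS3 and HYL1 to DCL1 overlap.

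AGO7 (AT1G69440), the argonaute of miR390 and TAS3, was the machinery gene nearest to a call. It had 46.6, 42.3 and 43.8 CPM in Dx4, Dx5 and Dx6 against 25.7, 33.9 and 35.3 CPM in CT1, CT2 and CT3, all dexamethasone libraries above all mock libraries. The means were 44.2 ± 2.18 and 31.6 ± 5.22 CPM (SD, n = 3 each), a log2 fold change of 0.46 ± 0.16 with a 95% interval of 0.13 to 0.80, and the edgeR adjusted p of 0.0608 missed the threshold. It passed without CT3 (adjusted p = 0.0162) and with no filter on low counts (0.0494). With any other library left out it did not pass (adjusted p from 0.115 to 0.202), and without CT1 its log2 fold change was 0.35. DESeq2's Wald test gave an adjusted p of 0.234. With the dawn-gene score included it lay at 0.796, the ends of its range over all alternatives being 0.0162 and 0.796.

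SGS3 (AT5G23570), which stabilises the cut TAS transcripts, had 55.3, 48.7 and 61.4 CPM in Dx4, Dx5 and Dx6 against 62.6, 55.9 and 55.3 CPM in CT1, CT2 and CT3, a log2 fold change of -0.06 ± 0.14 (95% interval -0.36 to 0.23, edgeR adjusted p = 0.832). RDR6 (AT3G49500), the polymerase that copies those transcripts, had 39.5, 47.1 and 47.2 CPM with dexamethasone against 33.8, 42.2 and 45.1 CPM in mock, a log2 fold change of 0.13 ± 0.16 (interval -0.20 to 0.46, adjusted p = 0.653). The groups overlapped in both genes. The RDR6 to SGS3 ratio was 0.71, 0.97 and 0.77 in Dx4, Dx5 and Dx6 and 0.54, 0.75 and 0.82 in CT1, CT2 and CT3, and its groups overlapped too (exact two-sided permutation p = 0.5, n = 3 each, smallest possible 0.1).

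**Figure D3:**
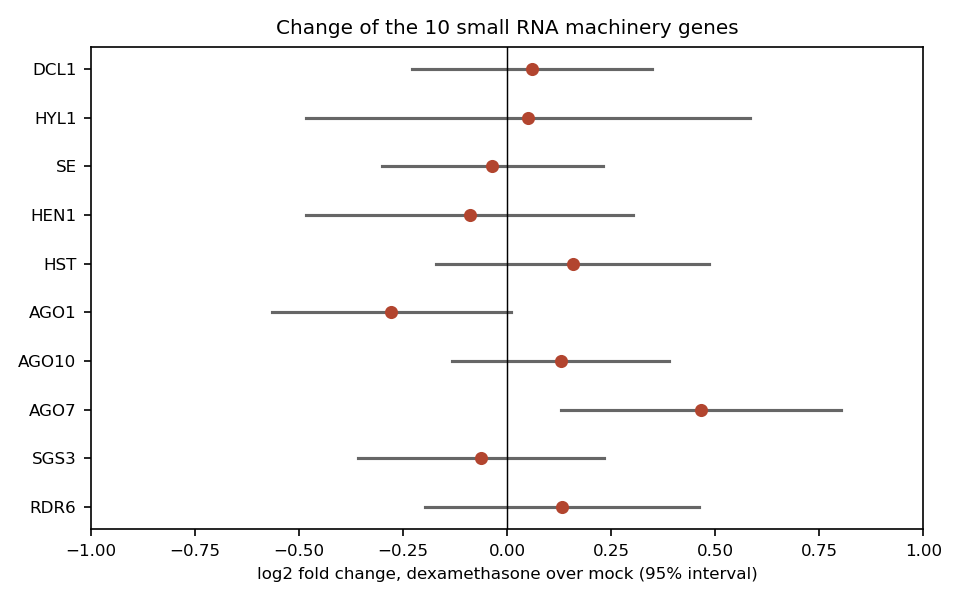
Log2 fold change of dexamethasone over mock for each of the 10 machinery genes (points) with its 95% interval (lines). The AGO7 interval, 0.13 to 0.80, is the one that leaves out 0, and that of HYL1 is the widest.

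The TAS3 transcript (AT3G17185), the substrate of AGO7, SGS3 and RDR6, was lower with dexamethasone. It had 12, 11 and 11 counts in Dx4, Dx5 and Dx6 against 29, 30 and 30 counts in CT1, CT2 and CT3. In CPM these are 6.58, 5.89 and 5.24 against 18.2, 13.8 and 14, with no overlap and with CT1 above the other mock libraries. The log2 fold change was -1.35 ± 0.29 (95% interval -1.95 to -0.75, edgeR adjusted p = 0.0031), and the call held without any 1 library, with adjusted p up to 0.0273. Including the dawn-gene score gave a log2 fold change of -0.98 and lost the call (adjusted p = 0.438). The other noncoding tasiRNA loci were not called. TAS3B, a second miR390 target, had means of 14.3 ± 2.21 and 14.4 ± 1.4 CPM with dexamethasone and in mock (log2 fold change -0.02 ± 0.24, adjusted p = 0.977). TAS2 and TAS1C, which depend on miR173, had log2 fold changes of 0.01 ± 0.22 and 0.23 ± 0.28. In all, 1 of 5 tested TAS and MIR loci was lower and none higher, and 9 further loci, MIR390A and MIR390B with at most 1 count per library among them, had too few counts to test. The libraries were made from poly(A) RNA, so these counts are of precursor transcripts and not of mature small RNAs.

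The TAS3 double strand is diced in 21-base steps, so windows were computed in such steps from the presumed cut at the 3′ miR390 stretch. The steps 7 and 8 upstream of that cut were the ones that paired best with ARF2, ARF3 and ARF4, with 18 of 21 bases each, and no other step paired with more than 14. They are shown with bases 2 to 8 in capitals, beside the ARF4 and ARF2 stretches with bases unpaired to the step 7 window in capitals. The ends of the tasiRNAs in these plants were not measured. These computed windows may be shifted by a base from published tasiRNA ends, so the capitals may not mark the seed.
TAS3 step 7 window (chr3:5862207-5862227): tCTTGACCttgtaagacccca
TAS3 step 8 window (chr3:5862186-5862206): tCTTGACCttgtaaggccttt
ARF4 stretch (chr5:24309509-24309529, minus strand, coding): AAgggtcttGcaaggtcaaga
ARF4 other stretch (chr5:24309719-24309739, minus strand, coding): tAAggtcttGcaaggtcaaga
ARF2 stretch (chr5:24913260-24913280, plus strand, coding): AAgggtcttGcaaggtcaaga

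Of the 3 TAS3 targets 1 was called. ARF4, a regulator of organ polarity and phase change, was higher, at 192, 194 and 180 CPM in Dx4, Dx5 and Dx6 against 135, 126 and 152 CPM in CT1, CT2 and CT3 (log2 fold change 0.45 ± 0.12, edgeR adjusted p = 0.019). The groups did not overlap, but the call was lost without CT2, Dx4, Dx5 or Dx6 in turn, with adjusted p up to 0.112. ARF3 (ETTIN), a regulator of floral organ and gynoecium patterning, averaged 127 ± 7.93 CPM with dexamethasone and 130 ± 4.96 CPM in mock (log2 fold change -0.03 ± 0.12, 95% interval -0.28 to 0.23, adjusted p = 0.928). ARF2, a repressor of organ growth, had 326, 342 and 325 CPM with dexamethasone against 379, 399 and 423 CPM in mock, without overlap but also without a call (log2 fold change -0.27 ± 0.11, adjusted p = 0.12). ARF2 and ARF4 carry the same 21-base stretch printed above, and ARF4 has the other one besides, with 18 of 21 bases paired as well. ARF3, which was not called, carries that other stretch too (chr2:14325823-14325843, minus strand, coding). A further ARF3 stretch (chr2:14325943-14325963) also had 18 of 21 bases paired. The log2 fold changes of ARF2 and ARF4 had opposite signs, of which that of ARF4 passed the test.

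**Figure D4:**
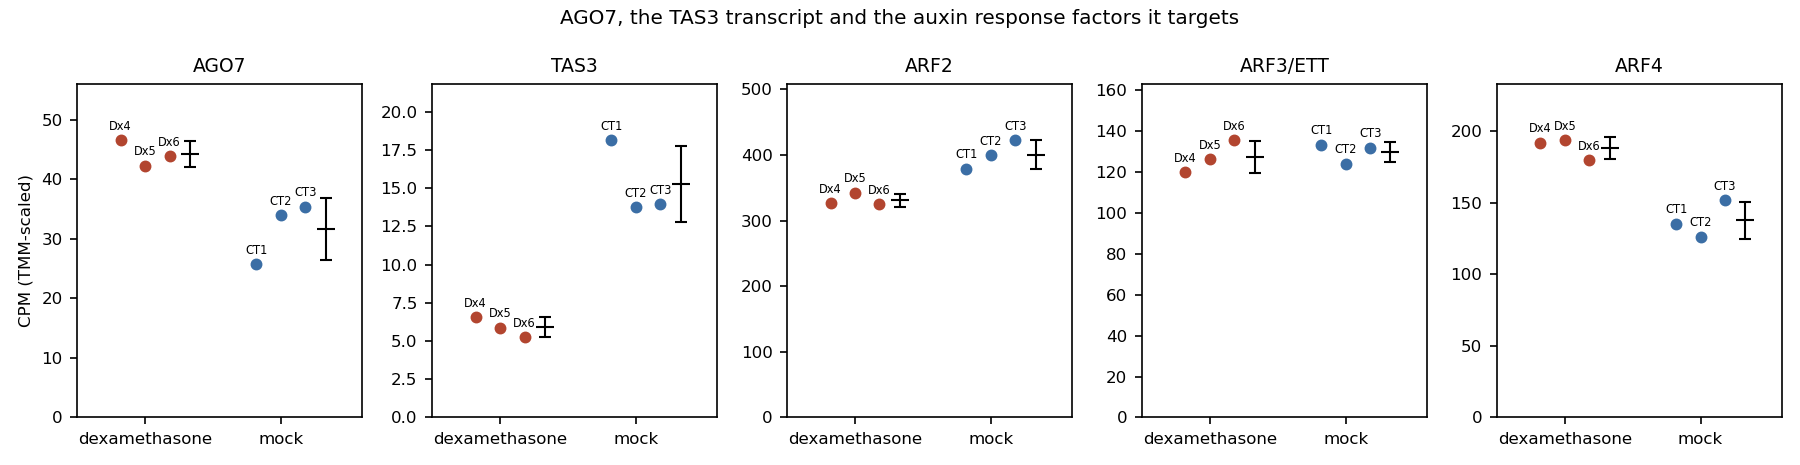
CPM (TMM-scaled, axis from 0) of AGO7, TAS3, ARF2, ARF3 and ARF4 in the dexamethasone libraries (red) and the mock libraries (blue), with mean ± SD in black. TAS3 lies at 5.24 to 6.58 CPM with dexamethasone and at 13.8 to 18.2 CPM in mock, and ARF4 is higher with dexamethasone.

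The HD-ZIP III genes, which specify the upper side of organs, are the targets of the miR165 and miR166 that AGO10 withholds from AGO1. Their matching stretches are printed for PHV and PHB, at both ends of the observed range, and for ATHB-15, the other gene called, with bases unpaired to miR165 in capitals. All 3 lie in coding sequence across a splice junction.
PHV (chr1:10799330-10799445, minus strand): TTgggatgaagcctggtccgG
PHB (chr2:14642530-14642666, minus strand): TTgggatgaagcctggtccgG
ATHB-15 (chr1:19412976-19413085, minus strand): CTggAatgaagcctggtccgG

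PHV rose with dexamethasone and PHB was not called, while their printed stretches are the same. PHV had 173, 173 and 161 CPM in Dx4, Dx5 and Dx6 against 101, 108 and 111 CPM in CT1, CT2 and CT3 (log2 fold change 0.66 ± 0.12, edgeR adjusted p = 0.00101), and kept its call without any 1 library (adjusted p up to 0.0143), though not with the dawn-gene score included (log2 fold change 0.62, adjusted p = 0.153). PHB had 99.2, 110 and 94.8 CPM against 132, 119 and 120 CPM, a log2 fold change of -0.29 ± 0.13 (adjusted p = 0.149). ATHB-15 (also CORONA) averaged 155 ± 5.04 CPM with dexamethasone and 116 ± 13.5 CPM in mock (log2 fold change 0.41 ± 0.13, adjusted p = 0.0352), a call lost without every library but CT3 in turn (adjusted p up to 0.149) and with DESeq2's Wald test (0.0827). REV and ATHB-8, whose stretches differ from that of PHV at the first base, had log2 fold changes of 0.20 ± 0.12 and 0.19 ± 0.17 and were not called. The difference in response between PHV and PHB was not tested. Over the 8 targets of TAS3 or of miR165 and miR166 together, 3 were higher, none lower and 5 not called, with a median log2 fold change of 0.20, where 5.86% of all genes tested were higher.

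The other genes of the small RNA pathways were taken from lists by role. Of 61 tested genes of 7 lists, 5 were higher and 4 lower, which is 14.8% beside the 13.9% of all genes. Their median log2 fold change was 0.0094. The tested genes thus moved about as often as the background, and the calls were spread over 5 of the lists. Of the 9 called genes, DRB3 alone stayed past the threshold when the dawn-gene score was included. Calls over all genes fell as well with that score, from 929 to 206 higher and from 1272 to 402 lower. The log2 fold changes with the score were as large as before or larger for MOS2 (-0.48), URT1 (-0.61) and SQN (1.10), close to it for PHV (0.62), and smaller for TAS3 (-0.98), CDC5 (-0.34), ARF4 (0.28) and ATHB-15 (0.11).

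Among 15 microRNA processing cofactors 2 were lower and none higher, with a median log2 fold change of -0.0053. CDC5, a MYB-related subunit of the MAC spliceosome-associated complex that binds DCL1 and MIR promoters, had 146, 146 and 164 CPM in Dx4, Dx5 and Dx6 against 241, 209 and 196 CPM in CT1, CT2 and CT3 (log2 fold change -0.50 ± 0.13, edgeR adjusted p = 0.0112). MOS2, an RNA-binding protein that helps HYL1 reach its precursors, had 64.1, 53 and 62.4 CPM against 81.4, 78.4 and 82.8 CPM (log2 fold change -0.43 ± 0.13, adjusted p = 0.0358). The groups did not overlap in either gene. The CDC5 call was lost without Dx4 or Dx5 (adjusted p up to 0.0887), and that of MOS2 without CT2, Dx4, Dx5 or Dx6 (up to 0.214) and with DESeq2's Wald test (0.134). The cap-binding subunits CBP80 and CBP20 had log2 fold changes of -0.04 ± 0.14 and -0.0053 ± 0.15.

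Of 9 tested turnover and AGO loading genes 1 was higher and 1 lower. SQN, a cyclophilin that promotes AGO1 activity together with HSP90, had 43.3, 39.1 and 31 CPM in Dx4, Dx5 and Dx6 against 23.2, 28.4 and 22.8 CPM in CT1, CT2 and CT3 (log2 fold change 0.59 ± 0.18, edgeR adjusted p = 0.0322). URT1, a uridylyltransferase that tails small RNAs and mRNAs, had 67.4, 53.5 and 71.5 CPM against 82, 89.4 and 90.7 CPM (log2 fold change -0.45 ± 0.14, adjusted p = 0.0379). The ranges were apart in both genes. The SQN call was lost without CT1, Dx4 or Dx5 (adjusted p up to 0.177) and that of URT1 without CT2, Dx4, Dx5 or Dx6 (up to 0.248), and both with DESeq2's Wald test (0.137 and 0.122). FBW2, the F-box protein that turns over AGO1, had a log2 fold change of 0.06 ± 0.12.

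Among 10 other dicer, RNA-dependent RNA polymerase and double-stranded RNA-binding genes and cofactors 1 was higher and none lower. DRB3, a relative of HYL1 with a role in antiviral silencing, had 139, 140 and 141 CPM in Dx4, Dx5 and Dx6 against 106, 104 and 82.8 CPM in CT1, CT2 and CT3, nearly without spread in the dexamethasone group. Its log2 fold change was 0.52 ± 0.13 (edgeR adjusted p = 0.0102), and the call was lost without any of the 3 dexamethasone libraries in turn (adjusted p up to 0.0674) but held with the dawn-gene score included (0.033). DCL4, the dicer of tasiRNAs, had 48.2, 51.4 and 47.2 CPM with dexamethasone against 58.2, 54.1 and 71.2 CPM in mock, groups without overlap and a log2 fold change of -0.33 ± 0.15 that was not called (adjusted p = 0.157). The other 5 tested argonautes were not called. AGO4, which acts in RNA-directed DNA methylation and is the most abundant of them, averaged 241 ± 8.19 CPM with dexamethasone and 245 ± 39.8 CPM in mock (log2 fold change -0.03 ± 0.13), and AGO6, the one with the largest difference, had a log2 fold change of 0.74 ± 0.29 (adjusted p = 0.0976). None of 9 tested decay and translational repression genes was called either, and their log2 fold changes ran from -0.25 to 0.18. Among them AMP1, a membrane protein needed for translational repression by microRNAs, had means of 112 ± 9.94 and 119 ± 4.83 CPM with dexamethasone and in mock.

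**Figure D5:**
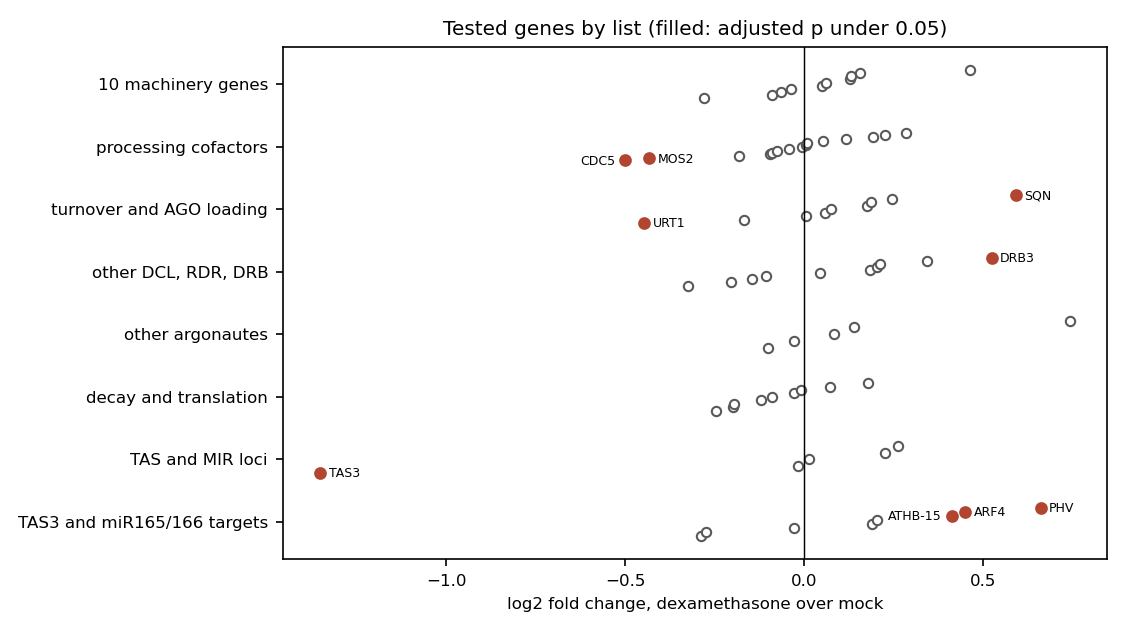
Log2 fold change of dexamethasone over mock of each tested gene, by list, with filled red points for adjusted p under 0.05 and open points for the rest. None of the 10 machinery genes is filled, and TAS3 is the lowest at -1.35.

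The coefficient of variation over 3 libraries was smaller with dexamethasone for 8 of the 10 genes, as it was for 66.4% of all genes tested, at 4.59% for HEN1, 5.71% for AGO1 and 4.09% for DCL1 with dexamethasone beside 27.9%, 21.6% and 17.2% in mock. HYL1 and SGS3 went the other way, at 38.2% and 11.6% with dexamethasone and 8% and 6.99% in mock. Inside the mock group CT3 was the highest library for 7 of the 10 genes and CT1 the lowest for 7, beside 36.9% and 35.1% of all genes tested. The difference in spread was not tested.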

How the data were processed

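The authors deposited a table of unnormalized read counts for each locus, which its name ascribes to HTSeq. Per the submitters' processing notes TopHat, Bowtie, RSEM and Cufflinks were used, with no version or role. Per the labels' protocols a stranded poly(A) kit made the libraries. The genome build, the annotation release and the strand setting were not given in the sources used here. Columns headed Dx were taken as dexamethasone and those headed CT as mock, and no column was tied to a single sample.

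The quasi-likelihood test was that of edgeR 4.0.16 under R 4.3.3 (TMM, filterByExpr with its minimum count of 10, robust, two-sided), adjusted by Benjamini-Hochberg over 15857 of 28775 loci with a threshold of 0.05. The procedure was tested on simulated data. SE is the size of the log2 fold change over the root of F, and 95% intervals use the moderated degrees of freedom. Libraries of a group differed by more than sampling noise, so all 6 were kept. Chi-square per gene was 1.26 to 1.34 among dexamethasone libraries, near sampling noise, and 2.13 to 5.18 among mock libraries. The floor of 3 counts covers counting error only. Alternatives were other scalings, filters, a looser threshold, DESeq2 1.42.0, limma-voom (limma 3.58.1), leaving out each library, and a covariate, the dawn-gene score. That score is the mean log2 CPM of the 3 genes with enough counts to be tested among 8 clock genes (CDF1, LNK2, LNK1, PRR9, RVE1, RVE8, LHY, CCA1).

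The members and lists were chosen with earlier results of these data known. All 10 members are named, then list genes past the threshold (up to 4 per list), or the most abundant of a list with none. CBP80, CBP20, FBW2, DCL4, AGO6, ARF2, ARF3, PHB, REV, ATHB-8, MIR162A and the other TAS loci were named after their values were seen. The rule for genes of a like pattern needed a member past the threshold and named none. Of 78 list symbols, 7 were not paired with their locus by the RefSeq table of TAIR10.1 and were left out.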

Additional observations from a re-analysis of the deposited data

How the results depend on the processing

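Of the 10 machinery genes, none was called with TMM scaling and the filter. The count called higher was 1 (AGO7) with no filter beyond 1 count and 1 (AGO7) at an adjusted p under 0.1, and 0 to 1 when a library was left out. The count called lower was 1 (AGO1) with the dawn-gene covariate and 0 to 1 when a library was left out. Over all genes, 929 were higher and 1272 lower. DESeq2's Wald test gave 549 and 815, the dawn-gene covariate 206 and 402, and leaving out a library 441 to 1816 higher and 668 to 1974 lower, lowest without Dx6 and Dx5 and highest without CT3, with a shift of over 1.5 times in at least 1 direction without any library but CT1. In the 7 lists the 5 higher and 4 lower genes became 3 and 2 with DESeq2, 1 and 0 with the covariate, and 1 to 8 and 1 to 5 without a library. Small fold changes turned their sign: HYL1 to -0.0073 with limma-voom and to -0.48, AGO10 to -0.17 and RDR6 to -0.29 with the covariate. Leaving out a library moved the log2 fold change of DCL1 from -0.031 to 0.21, HYL1 from -0.30 to 0.27, SE from -0.074 to 0.0067, HEN1 from -0.28 to 0.075 and SGS3 from -0.16 to 0.019, and, with no change of sign or call, HST from 0.074 to 0.25, AGO10 from 0.064 to 0.24 and RDR6 from 0.028 to 0.21. The log2 difference of the HYL1 to DCL1 ratio, -0.12, ranged from -0.37 to 0.14 in that way, and that of RDR6 to SGS3, 0.22, from 0.045 (without CT1) to 0.34. The cause was not tested for any of these. No paired analysis was possible because the columns carry no replicate numbers that match the labels in both groups. HYL1, TAS3 and the MIR loci are limited by depth.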
